A study of Mus musculus with 50 samples.

Results

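*Zcwpw1* and 9 other genes whose proteins bind histone H3 trimethylated at lysine 4 (H3K4me3) were followed by RNA sequencing in mouse frontal cortex at 5 ages and in 2 genotypes. The other genes were *Ing1*, *Ing2*, *Ing4*, *Ing5*, *Phf2*, *Phf8*, *Spin1*, *Taf3* and *Bptf*. *Zcwpw1* was picked on its lower level in *Setd1a*+/- mice, so its difference between genotypes is given as a description with no test, and the other 9 were listed as further readers of the mark. These 10 genes were found among the 55487 genes in the files, and all 10 were among the 16330 protein-coding genes with enough counts to be tested. There are 50 libraries from wild-type (WT) and heterozygous *Setd1a*+/- (Het) mice, 5 of each genotype at 2 embryonic ages (E14 and E18) and 3 postnatal ages (P7, P35 and P70). Het mice carried 1 loss-of-function copy of *Setd1a* (the tm1d allele of a knockout-first design), and heterozygous males were mated with WT females. The labels give the strain of both genotypes as C57BL/6NTac, while the methods give a mixed C57BL/6NTac and C57BL/6J background, male mice and slightly later embryonic ages, and say that postnatal mice were littermates. Frontal tissue was dissected and homogenized in a reagent for extracting synaptic proteins, and its polyadenylated RNA was read as 150 bp pairs in 1 sequencing batch, and the deposited counts summed to 35507165 to 43907318 per library. Each library came from a separate mouse, so the p-values below measure the spread between mice. Litter was not modelled, so these p-values treat the mice as independent.

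H3K4me3 is laid down at the promoters of active genes, above all those rich in CG dinucleotides, by complexes such as the one built around Setd1a, whose subunit Cxxc1 binds unmethylated CG. Reader proteins hold the mark in a small domain (a PHD finger, a zinc finger of the CW type or a Tudor-like fold) and bring other enzymes or the transcription machinery with them. Zcwpw1 carries a CW domain and a PWWP domain and is known above all from meiosis, where it binds sites at which the methyltransferase Prdm9 has marked histone H3.

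*Zcwpw1* (ENSMUSG00000037108) lies on the plus strand of chromosome 5 of GRCm38 from 137787798 to 137822621. *Ing2* (ENSMUSG00000063049) lies on the minus strand of chromosome 8 from 47667178 to 47675556. Both promoters are shown because CG dinucleotides are what Cxxc1 binds, and because these 2 readers had the lowest levels in Het relative to WT. The difference of *Ing2* was not called (edgeR adjusted p 0.132). Whether CG content has a part in either difference was not tested. The windows run from 250 bases before to 50 bases after a start site, at chr5:137787552-137787851 on the plus strand and chr8:47675110-47675409 on the minus strand. They are from RefSeq (GRCm38.p6), written 5′ to 3′ with each CG in capitals.
Zcwpw1: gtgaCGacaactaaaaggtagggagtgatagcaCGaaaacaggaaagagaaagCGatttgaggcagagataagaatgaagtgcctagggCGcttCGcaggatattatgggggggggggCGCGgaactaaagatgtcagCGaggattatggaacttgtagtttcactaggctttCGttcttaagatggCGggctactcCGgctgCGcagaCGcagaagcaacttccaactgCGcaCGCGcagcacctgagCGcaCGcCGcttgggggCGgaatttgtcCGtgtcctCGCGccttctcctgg
Ing2: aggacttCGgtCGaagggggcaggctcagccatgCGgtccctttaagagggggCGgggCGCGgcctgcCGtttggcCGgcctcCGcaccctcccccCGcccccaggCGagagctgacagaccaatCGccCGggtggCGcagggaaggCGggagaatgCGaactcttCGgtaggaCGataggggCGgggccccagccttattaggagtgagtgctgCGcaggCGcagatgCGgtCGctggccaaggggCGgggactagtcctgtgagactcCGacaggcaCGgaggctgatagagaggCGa
The printed *Zcwpw1* window held 23 CG and the *Ing2* window 27. A second *Zcwpw1* window in the table, at chr5:137787081-137787380, held 17. The printed *Zcwpw1* window holds the gene start given above, while the start of *Ing2* given above lies upstream of the *Ing2* window. The motif CG, which reads the same on both strands, occurred at least once in 94.6% of the 32851 promoter windows of 300 bases in the table, which include windows of genes not tested here. Only 12482 of the 16330 tested genes have a window, and the median over their 15881 windows was 18 CG. The rest have none, so this median does not stand for all tested genes. All 10 readers matched the table by symbol, with 17 windows that held 2 to 63 CG. The window with 63 belonged to *Phf2* and the window with 2 to a start of *Spin1* inside the gene. *Mepce*, on the minus strand, starts 143 bases from *Zcwpw1*, so both starts fall in the *Zcwpw1* window, at positions 104 and 247 counted from its 5′ end.

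*Setd1a* was examined first. Its mean level in CPM (counts scaled to a library of one common size, with edgeR's TMM method) was 127 ± 7.53 (SD, n = 5) in WT and 137 ± 8.83 (SD, n = 5) in Het at E14, and 86.3 ± 4.08 (SD, n = 5) and 84.8 ± 8.01 (SD, n = 5) at P70. Over the 5 ages, its log2 fold change in Het was 0.10 ± 0.025 (SE, edgeR adjusted p 0.00673), with a higher mean in Het at 4 of 5 ages. These counts are for the whole gene and do not give the deleted part separately. Of its exonic bases, 52.3% are shared with other genes, mainly *Gm49388*, so the counts do not check the genotype labels.

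Of the 50 libraries, 4 are named here because they differed from their groups, and 3 of them, all WT, were left out together as 1 alternative. WT library 5 at E14 held 60159 counts of *Xist* and WT library 2 at E18 held 55644, against 1 to 27 in the other 48. The same 2 libraries held 0 to 11 counts over 4 Y-linked genes together, against 4711 to 9768 in the others, although the study describes male mice. WT library 2 at P7 differed in markers of cell types and regions. Its summed excitatory neuron markers were at 816 CPM (1637 to 1694 in the other 4 WT libraries of that age), its oligodendrocyte markers at 1527 CPM (464 to 513) and its choroid plexus markers at 637 CPM (2.54 to 3.61). The spread of its log2 levels around its group was the largest of the 50, at an SD of 0.55. The second largest, 0.483, was that of Het library 2 at E14, whose endothelial and pericyte markers summed to 781 CPM (178 to 300 in the other 4 Het libraries of that age). This library was left out on its own only.

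The labelled tissue was checked against 11 marker lists. All 8 markers of cortical excitatory neurons were found, led by *Slc17a7*, and their sum ranged from 816 to 2810 CPM over the 50 libraries. No marker of any list was at 0 in all libraries. In WT, the 7 progenitor markers, led by *Top2a*, went from a summed mean of 1384 CPM (1102 to 1644 in 5 libraries) at E14 to 77.8 CPM (64.5 to 90.8 in 5 libraries) at P70. The 8 oligodendrocyte markers, led by *Mbp*, went from 123 ± 13.7 CPM (SD, n = 5) to 3454 ± 252 CPM (SD, n = 5). The lists of other cells and regions were also found whole: interneurons (8 of 8, led by *Dlx1*, summing to 421 to 1481 CPM), astrocytes (6 of 6, *Slc1a3*, 144 to 1386 CPM), microglia (6 of 6, *Csf1r*, 35.7 to 248 CPM), erythroid cells (5 of 5, *Hbb-bs*, 59.4 to 1026 CPM), striatum (6 of 6, *Ppp1r1b*, 69.3 to 1133 CPM) and hindbrain (8 of 8, *Egr2*, 0.163 to 23.7 CPM). Of the hindbrain list only *Egr2* had enough counts to be tested, and *Hoxa2*, *Hoxa5*, *Hoxb2*, *Hoxb3* and *Hoxc4* were each at 0 in 40 to 46 of the 50 libraries. Of 67 marker genes tested, edgeR called 0 by genotype (4.43% of all tested genes were called), with 2 at an unadjusted p under 0.05 (2361 of all 16330), DESeq2 called 1, a choroid plexus marker, and limma 0. At E18, the 6 of 6 choroid plexus markers, led by *Ttr*, summed to 7.03 to 236 CPM in WT and 4.66 to 8.94 CPM in Het, and at E14 the 6 of 6 endothelial and pericyte markers, led by *Rgs5*, summed to 173 to 223 CPM in WT and 178 to 781 CPM in Het, where library 2 was the highest. At E18 the latter lay the other way, at 260 to 532 CPM in WT and 221 to 305 CPM in Het. The part of these markers in the results below was not tested, and in whole tissue fewer cells of a type and less RNA per cell cannot be told apart.

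*Zcwpw1* had 120 to 398 counts per library, which put its mean level per length over the 50 libraries, 1.07 RPKM (CPM per kilobase of exon), above those of 21.6% of the tested genes. At E14, WT libraries 1 to 5 held 9.28, 7.45, 9.37, 10.2 and 9.41 CPM of *Zcwpw1*, and Het libraries 1 to 5 held 6.87, 5.28, 6.04, 4.73 and 5.97 CPM. Every Het library was below every WT library, and WT library 5, which held *Xist*, was the second highest of its group. At E18, the 5 WT values were 7.45, 8.25, 6.37, 7.37 and 6.19 CPM and the 5 Het values 5.89, 5.95, 6.66, 5.09 and 5.06 CPM. Here the groups overlapped, since Het library 3 was above WT libraries 3 and 5, and the highest value belonged to WT library 2, which held *Xist*. At P7, WT libraries held 5.48, 7.50, 5.06, 5.01 and 5.53 CPM and Het libraries 4.38, 3.68, 3.34, 3.91 and 4.32 CPM. WT library 2, the library with unlike markers, was the highest, and the groups did not overlap with it or without it.

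At P35, *Zcwpw1* was at 6.88, 6.71, 7.59, 5.91 and 5.97 CPM in WT and 3.91, 5.34, 4.93, 5.22 and 5.18 CPM in Het. Het library 1 was the lowest, apart from the other 4 Het libraries, and the groups did not overlap. At P70, the values were 7.276, 6.50, 6.322, 6.97 and 6.87 CPM in WT and 4.851, 5.475, 5.309, 5.557 and 4.701 CPM in Het, again without overlap. The Het mean of *Zcwpw1* was therefore below the WT mean at each age, by 36.8% and 19.6% at E14 and E18 and by 31.3%, 25.7% and 23.7% at the postnatal ages in order.

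**Figure D1:**
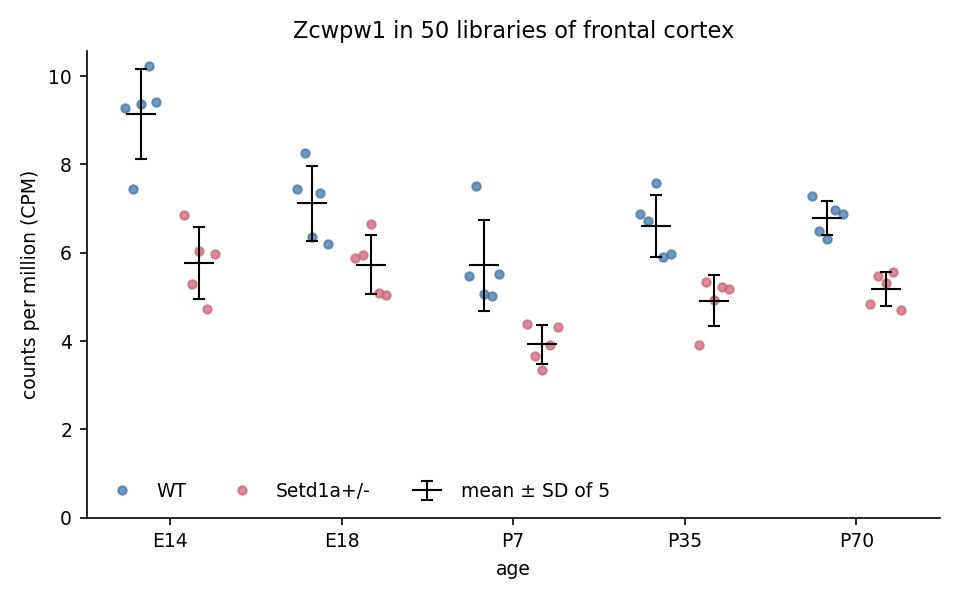
*Zcwpw1* level in CPM (vertical axis) by age in 50 libraries, WT in blue and *Setd1a*+/- in red, each point 1 library and each bar the mean ± SD of 5. The groups overlap at E18 only, and the high point in WT at P7 is library 2, at 7.50 CPM.

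On the log2 scale, the *Zcwpw1* difference of Het from WT was −0.47 with age as a covariate, and −0.66, −0.31, −0.54, −0.43 and −0.39 from E14 to P70, each with a standard error of about 0.11. Without the 3 WT libraries named above, it was −0.43 over the ages, −0.66 at E14, −0.26 at E18 and −0.42 at P7, and without Het library 2 at E14 it was −0.63 at that age. Leaving out any 1 of the 50 libraries gave −0.48 to −0.45. This is the contrast on which *Zcwpw1* was picked, and it carries no test. For the whole table, edgeR called 723 genes by genotype with age as a covariate (adjusted p under 0.05), 612 lower and 111 higher in Het, which is 4.43% of those tested.

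Ordered by mean, the highest *Zcwpw1* level was 9.15 ± 1.02 CPM (SD, n = 5) in WT at E14 and the lowest 3.93 ± 0.437 CPM (SD, n = 5) in Het at P7. WT at E14 stood above the next group, WT at E18 with 7.13 ± 0.849 CPM (SD, n = 5), by more than either SD. WT at E18, P70 and P35 followed each other within their spread, down to 6.61 ± 0.697 CPM (SD, n = 5). Below a further gap came Het at E14 and E18 and WT at P7, at 5.72 to 5.78 CPM, which did not differ beyond their spread. Het at P70 and P35 came next, within the spread of their neighbours, and Het at P7 stood below Het at P35 by more than either SD. Without WT library 2, the WT mean at P7 was 5.27 ± 0.271 CPM (SD, n = 4).

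The reads of *Zcwpw1* and its neighbour *Pilra* cannot be fully told apart. *Pilra*, on the minus strand, shares 468 exonic bases with the end of *Zcwpw1*, 8.21% of the exonic bases of *Zcwpw1* and 15.2% of its own. Counting used no strand and assigned a fragment to each gene it touched. *Pilra* had fewer counts than *Zcwpw1*, a median of 56 and 30 to 101 per library. *Pilra* means were lower in Het at all 5 ages, from 38.6% lower at E14 (WT 1.82 to 2.73 CPM, Het 1.06 to 1.63 CPM, no overlap) to 16.7% lower at P70 (WT 1.54 to 2.30 CPM, Het 1.22 to 1.89 CPM). Its log2 difference was −0.43 over the ages, given with no test because it shares these reads.

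*Mepce*, which encodes the methylphosphate capping enzyme of 7SK RNA, is the gene that starts in the window printed above on the other strand. Its mean was lower in Het at all 5 ages, by 8.46% and 0.429% before birth and by 5.03%, 9.22% and 8.21% after it, and the groups overlapped at each age. With age as a covariate its log2 fold change was −0.094 ± 0.025 (SE, edgeR adjusted p 0.0146). The other genes within 20 kb were *Ppp1r35*, with 0.084 ± 0.030 (SE, edgeR adjusted p 0.113), and *Tsc22d4*, with −0.11 ± 0.038 (SE, edgeR adjusted p 0.107). Neither passed the threshold.

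The 5 tested genes whose log2 CPM followed *Zcwpw1* most closely over the 25 WT libraries were *Msi2* (Pearson r 0.899), *Spag5* (0.895), *Gm20403* (0.894), *Mrps2* (0.893) and *Clic4* (0.885). The 25 libraries fall into 5 ages, so a shared course over age and any closer link cannot be told apart. None of the 5 was among the 5 closest by Spearman's rho or over the 25 Het libraries. Genotype differences of these 5 genes ran from −0.15 for *Spag5* to −0.019 for *Msi2* on the log2 scale, with edgeR adjusted p of 0.628 to 0.911. Among the other readers, Pearson r with *Zcwpw1* over the 25 WT libraries was highest for *Ing5* (0.740), was 0.111 for *Spin1* and was below 0 only for *Ing2* (−0.523). By Spearman's rho the highest was *Bptf* (0.684), and *Ing5* was at 0.581.

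The steps between neighbouring ages in WT were tested for all 10 readers. *Zcwpw1* was picked on its genotype difference, which the WT values also entered, so its own steps are not independent of that choice. From E14 to E18, 8 of 10 readers fell and 1 rose, where 34.1% of all tested genes fell and 31.8% rose. *Zcwpw1* fell by 0.36 ± 0.11 on the log2 scale (SE, edgeR adjusted p 0.00369), although the 2 groups of libraries overlapped. Its Het means, given with no test, were 5.78 CPM at E14, 5.73 CPM at E18 and 3.93 CPM at P7. From E18 to P7, again 8 of 10 fell and 1 rose, beside 33.4% and 33.9% of all tested genes, and *Zcwpw1* fell by 0.32 ± 0.11 (SE, edgeR adjusted p 0.0107), again with overlap. Without the *Xist* libraries these steps of *Zcwpw1* were −0.41 (edgeR adjusted p 0.00361) and −0.26 (edgeR adjusted p 0.0497), and over all alternatives their adjusted p ranged from 0.000964 to 0.0179 and from 0.000522 to 0.0497. In both steps *Ing2* was the gene that rose and *Spin1* the gene that was not called.

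From P7 to P35, 3 of 10 readers fell (*Ing1*, *Ing4* and *Spin1*) and 3 rose (*Ing2*, *Ing5* and *Taf3*), beside 34.4% and 32.6% of all tested genes. The *Zcwpw1* difference was 0.21 ± 0.11 (SE, edgeR adjusted p 0.0925) and did not pass the threshold. Without WT library 2 at P7 it was 0.33 (edgeR adjusted p 0.00797), so this 1 library decided the call, and over all alternatives the adjusted p ranged from 0.00797 to 0.414. From P35 to P70, edgeR called 0 of 10 readers lower and 0 higher, beside 0.521% and 0.527% of all tested genes. *Taf3* had an unadjusted p of 0.0116 there, the only one under 0.05 (872 of all 16330 tested genes on the lower and 980 on the higher side), and DESeq2 and limma also called 0.

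Readers of the ING family, whose PHD fingers bring histone deacetylases (Ing1 and Ing2) or acetyltransferases (Ing4 and Ing5) to H3K4me3, took different courses. *Ing1* in WT went from 82.5 ± 3.18 CPM (SD, n = 5) at E14 to 33.1 ± 2.08 CPM (SD, n = 5) at P35, and fell at each of these 3 steps. *Ing4* went from 117 ± 4.11 CPM (SD, n = 5) to 38.3 ± 1.81 CPM (SD, n = 5) between the same ages, and also fell at each step. The largest called step of either was the fall of *Ing4* from E18 to P7, −0.90 ± 0.066 on the log2 scale (SE, edgeR adjusted p 7.77e-16), with no overlap between the groups. Of the exonic bases of *Ing4*, 34.9% are shared with *Gm44597* on the same strand, and the median counts of both were similar, 1535 and 1590. *Ing5* was at 22.4 ± 2.27 CPM (SD, n = 5) at E14, fell to 13.4 ± 0.720 CPM (SD, n = 5) at P7 and rose again by P35 to 15.7 ± 1.42 CPM (SD, n = 5). Its fall from E18 to P7, −0.21 ± 0.079 (SE, edgeR adjusted p 0.0164), was not called without WT library 5 at E18, where it was −0.16 (edgeR adjusted p 0.081, range 0.0053 to 0.081 over all alternatives). Its rise from P7 to P35, 0.23 ± 0.079 (SE, edgeR adjusted p 0.00878), was not called with counts scaled to library size only, at 0.14 (edgeR adjusted p 0.137, range 0.00468 to 0.137 over all alternatives). In both of these steps the groups overlapped.

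*Ing2*, in the same deacetylase complex as *Ing1*, was the only one of the 10 readers that rose at more than 1 step in WT. At E14, its WT values were 10.63, 11.11, 10.8, 10.39 and 10.87 CPM, and the Het values 11.2, 10.06, 11.93, 9.502 and 9.649 CPM. At E18, they were 12.78, 14.23, 12.03, 13.36 and 13.03 CPM in WT and 14.04, 12.99, 13.03, 12.22 and 11.89 CPM in Het. The genotypes overlapped at both embryonic ages, and each WT library at E18 was above each at E14. At P7, WT libraries held 18.54, 14.39, 21.18, 20.95 and 20.53 CPM and Het libraries 19.86, 16.61, 17.72, 18.83 and 17.43 CPM. Library 2, which had unlike markers, was the lowest WT library of that age, and the genotypes overlapped.

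At P35, *Ing2* was at 31.66, 32.18, 31.75, 31.35 and 32.47 CPM in WT and at 30.58, 30.45, 27.67, 29.02 and 29.08 CPM in Het, and every Het library was below every WT library. The log2 difference at P35, −0.12 ± 0.068 (SE, edgeR unadjusted p 0.0898), was not called. How many of all tested genes separate in this way at P35 was not counted. At P70, *Ing2* was at 30.44, 28.77, 33.66, 32.73 and 30.45 CPM in WT and at 30.09, 28.64, 28.97, 26.83 and 27.04 CPM in Het, with overlap. The WT mean at P70 was 2.90 times that at E14, and the Het mean 2.70 times. The WT steps were 0.28 ± 0.071 (SE, edgeR adjusted p 0.000587) from E14 to E18, 0.55 ± 0.070 (SE, edgeR adjusted p 3.98e-09) from E18 to P7 and 0.74 ± 0.069 (SE, edgeR adjusted p 7.41e-13) from P7 to P35.

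**Figure D2:**
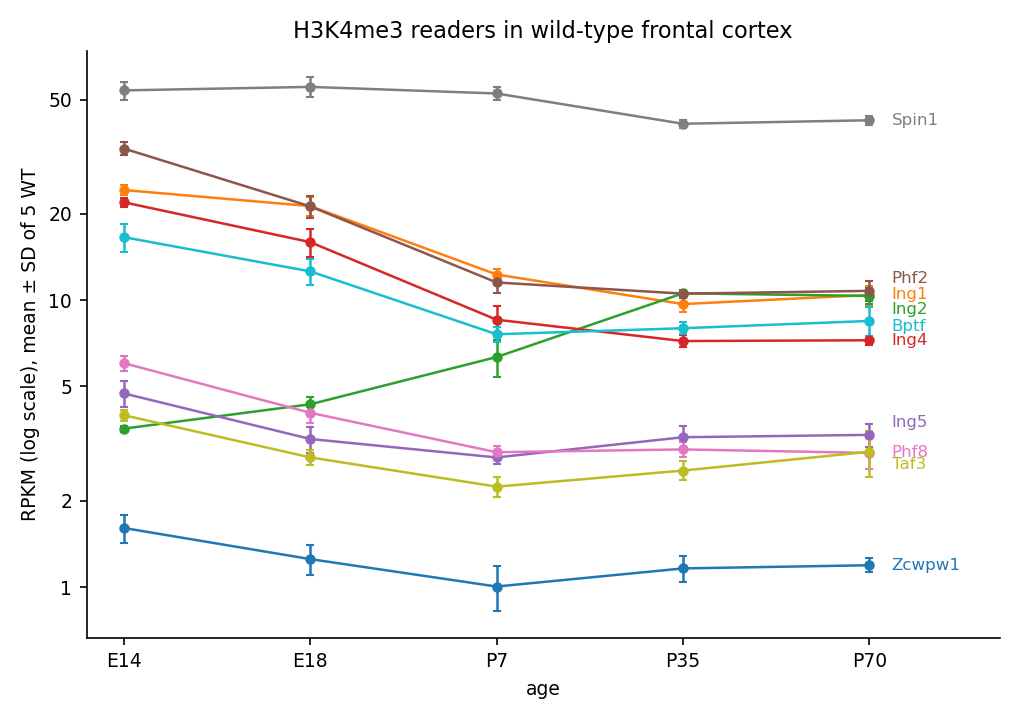
Mean level of the 10 readers in RPKM (vertical axis, log scale) in WT at 5 ages, with bars for the SD of 5 libraries. *Ing2* rises from E14 to P35 while most of the others fall, and *Zcwpw1* is the lowest at every age.

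Readers that are themselves demethylases of other lysines, *Phf2* and *Phf8*, fell at both steps from E14 to P7 and were not called after that. *Phf2* went from 33.7 ± 1.72 RPKM (SD, n = 5) at E14 to 11.5 ± 0.953 RPKM (SD, n = 5) at P7, the widest relative range of the 10 between E14 and P70, with an E14 mean 3.13 times that at P70. *Phf8*, which is on the X chromosome, went from 6.03 ± 0.381 RPKM (SD, n = 5) to 2.95 ± 0.163 RPKM (SD, n = 5). From P7 to P35, *Phf2* had a log2 difference of −0.13 ± 0.059 (SE, edgeR adjusted p 0.0527) and narrowly missed the threshold. It passed without Het library 1 or 3 at E14 (edgeR adjusted p 0.0467 and 0.0489), WT library 4 at E18 (0.0446), WT library 4 at P35 (0.0413) or WT library 3 at P7 (0.0263). It also passed with library size only (0.00103), a covariate for RNA integrity (0.0443), all annotated genes (0.0427) and without the *Xist* libraries (0.0419). Without WT library 2 at P7 the difference was −0.078, with the highest adjusted p of all alternatives (edgeR adjusted p 0.253).

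*Spin1*, whose Tudor-like domains read the mark, was the most abundant of the 10 per length at each age and moved least before birth. Its WT mean was 53.8 ± 3.80 RPKM (SD, n = 5) at E14 and 52.5 ± 2.76 RPKM (SD, n = 5) at P7, and then 41.2 ± 1.35 RPKM (SD, n = 5) at P35. From E14 to E18 its difference of 0.041 ± 0.046 (SE, edgeR adjusted p 0.449) was called only with counts scaled to library size, at 0.092 (edgeR adjusted p 0.0108, range 0.0108 to 0.961 over all alternatives). The step from P7 to P35 was a fall, at −0.35 ± 0.047 on the log2 scale (SE, edgeR adjusted p 8.46e-09), with no overlap between the groups. From E18 to P7 its difference of −0.077 ± 0.046 (SE, edgeR adjusted p 0.142) was not called. It was called without WT library 1 at E18, at −0.11 (edgeR adjusted p 0.0294), and with library size only, at −0.13 (edgeR adjusted p 0.00035), and over all alternatives the adjusted p went up to 0.666.

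*Taf3*, the subunit through which the general transcription factor TFIID holds H3K4me3, and *Bptf*, the reader of the NURF remodelling complex, both fell in the first 2 steps, with overlap between the groups for *Bptf* from E14 to E18. *Bptf* went from 16.6 ± 1.83 RPKM (SD, n = 5) at E14 to 7.60 ± 0.435 RPKM (SD, n = 5) at P7 and was not called after that. *Taf3* went from 3.97 ± 0.177 RPKM (SD, n = 5) to 2.24 ± 0.183 RPKM (SD, n = 5) and then to 2.55 ± 0.195 RPKM (SD, n = 5) at P35. That rise, 0.19 ± 0.083 on the log2 scale (SE, edgeR adjusted p 0.0448), was close to the threshold, and the groups overlapped. It was not called without WT library 1, 2 or 4 at P35 (edgeR adjusted p 0.089, 0.131 and 0.066) or WT library 3 or 5 at P7 (0.0861 and 0.147), and only 4 of 13 other settings kept the call, with adjusted p of 0.0214 to 0.308. Antisense genes share 7.65% of the exonic bases of *Taf3*.

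Per length, the order of the 10 readers in WT at E14 was *Spin1*, *Phf2*, *Ing1*, *Ing4*, *Bptf*, *Phf8*, *Ing5*, *Taf3*, *Ing2* and *Zcwpw1*, and each mean stood apart from the next by more than either SD. *Zcwpw1* was the lowest at every age, at 1.00 to 1.61 RPKM. *Ing2* moved from ninth at E14 to a level at P35 that did not differ beyond its spread from that of *Phf2*, 10.6 ± 0.146 RPKM (SD, n = 5) against 10.5 ± 0.346 RPKM (SD, n = 5). At P70, *Phf2*, *Ing1* and *Ing2* lay within their spread of each other, while *Ing5* was within the spread of *Taf3*, and *Taf3* within that of *Phf8*.

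By genotype, none of the 9 readers other than *Zcwpw1* was called by edgeR with age as a covariate (0 of 9, beside 4.43% of all tested genes). An unadjusted p under 0.05 was found for 1, *Ing2* (2361 of all 16330 tested genes), and DESeq2 and limma gave the same counts of 0 and 1. The median log2 fold change of the 9 was −0.011, with 7 of 9 under 0, beside a median of 0.001 over all 16330 tested genes, of which 8021 were under 0. Apart from *Ing2* and *Ing4*, with −0.058 ± 0.030 (SE, edgeR adjusted p 0.368), the log2 differences ran from −0.021 for *Phf8* to 0.017 for *Spin1*. Standard errors of these 7 were 0.021 to 0.038, and their edgeR adjusted p 0.814 to 0.966.

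The difference of *Ing2* was −0.083 ± 0.030 (SE, unadjusted p 0.00921, edgeR adjusted p 0.132), and its mean was lower in Het by 2.71% and 1.93% before birth and by 5.38%, 7.91% and 9.28% at the postnatal ages in order. Single libraries left out moved the log2 difference at E14, −0.041, to between −0.092 (without Het library 3) and −0.0081 (without Het library 4). Without the *Xist* library the E18 means were alike, 12.80 CPM in WT and 12.84 CPM in Het, with the log2 difference turned to 0.0046, and without WT library 2 the Het mean at P7 was 10.9% lower. The log2 difference at P7, −0.079, ran from −0.17 without that library to −0.038 without WT library 3. Over the ages, without WT library 2 at P7 the difference was −0.099 and called (edgeR adjusted p 0.0139), and without the 3 named WT libraries −0.096 and called (edgeR adjusted p 0.0248). With counts scaled to library size only it was −0.089 (edgeR adjusted p 0.0435). Over the other settings and single libraries left out, the adjusted p ranged from 0.0139 to 0.208, so the call of *Ing2* depended on 1 library and on the scaling.

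**Figure D3:**
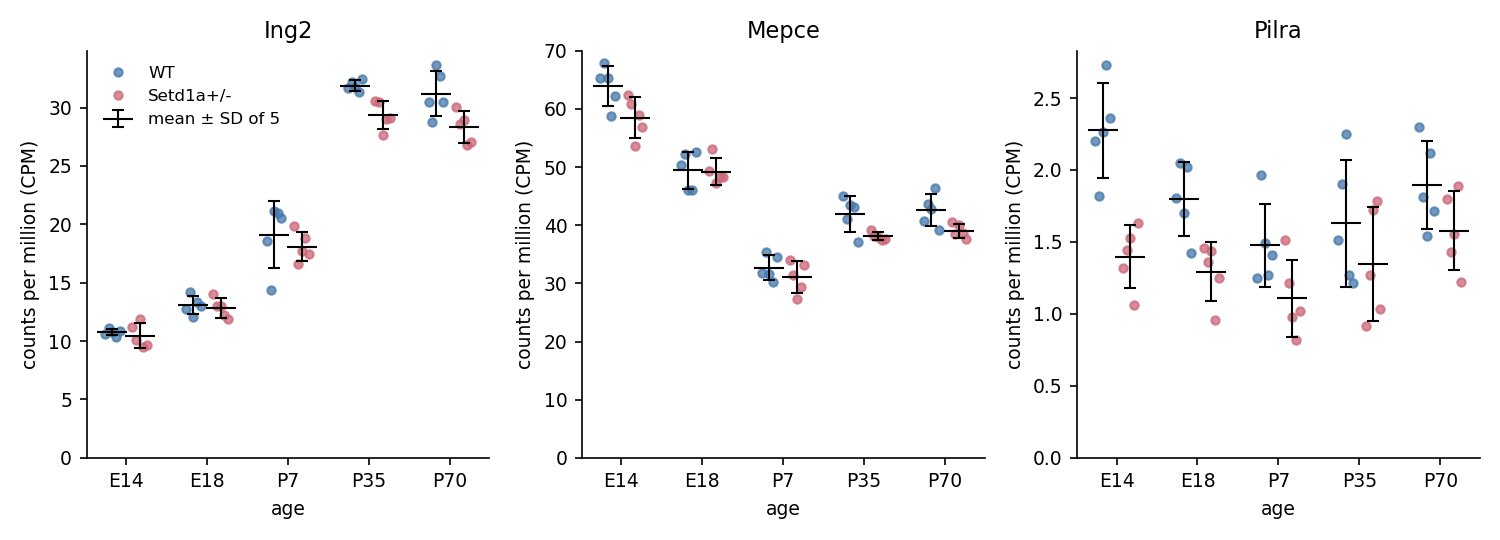
Levels of *Ing2*, *Mepce* and *Pilra* in CPM (vertical axes) by age, WT in blue and *Setd1a*+/- in red, each point 1 library and each bar the mean ± SD of 5. *Ing2* rises to about 32 CPM in WT at P35, where the genotypes do not overlap but edgeR called no difference. Its low WT point at P7 is library 2 at 14.4 CPM.

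At single ages, edgeR called 0 of the 9 readers at E14 (0.129% of all tested genes were called), E18 (0.11%), P7 (0.723%), P35 (0%) and P70 (0.233%). Over these 45 tests, 3 had an unadjusted p under 0.05, *Ing4* and *Taf3* at P7 and *Ing2* at P70, where from E14 to P70 in order 1896, 1859, 1449, 550 and 1065 of all 16330 tested genes did. DESeq2 called 0 of the 45 with 1 under 0.05 unadjusted, and limma 0 with 2. At P7, the difference of *Ing4* was −0.15 ± 0.067 (SE, edgeR adjusted p 0.437), or −0.083 without WT library 2, which held 54.07 CPM, and that of *Taf3* −0.17 ± 0.083 (SE, edgeR adjusted p 0.556). At P70 that of *Ing2* was −0.14 ± 0.069 (SE, edgeR adjusted p 0.75). The counts over all genes moved with many single libraries. The 21 at E14 became 799 without both *Xist* libraries, 427 and 398 without Het library 1 or 3 and 1 without WT library 1. The 18 at E18 became 76 without both *Xist* libraries and 149 without Het library 2 of E14. The 118 at P7 became 7 without WT library 2, 31 without Het library 1 and 212 without WT library 3, while 0 of the 9 readers were called at any single age in these fits.

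The age by genotype interaction, which asks whether the genotype difference changes with age, was tested over its 4 terms together. EdgeR called 0 of the 9 readers, with 0 under an unadjusted p of 0.05 (1101 of all 16330), and 0 of all tested genes (0%). DESeq2 and limma called 0 of the 9 as well, also with 0 under 0.05 unadjusted. The smallest edgeR adjusted p among the 9 was 0.905, for *Taf3*.

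**Figure D4:**
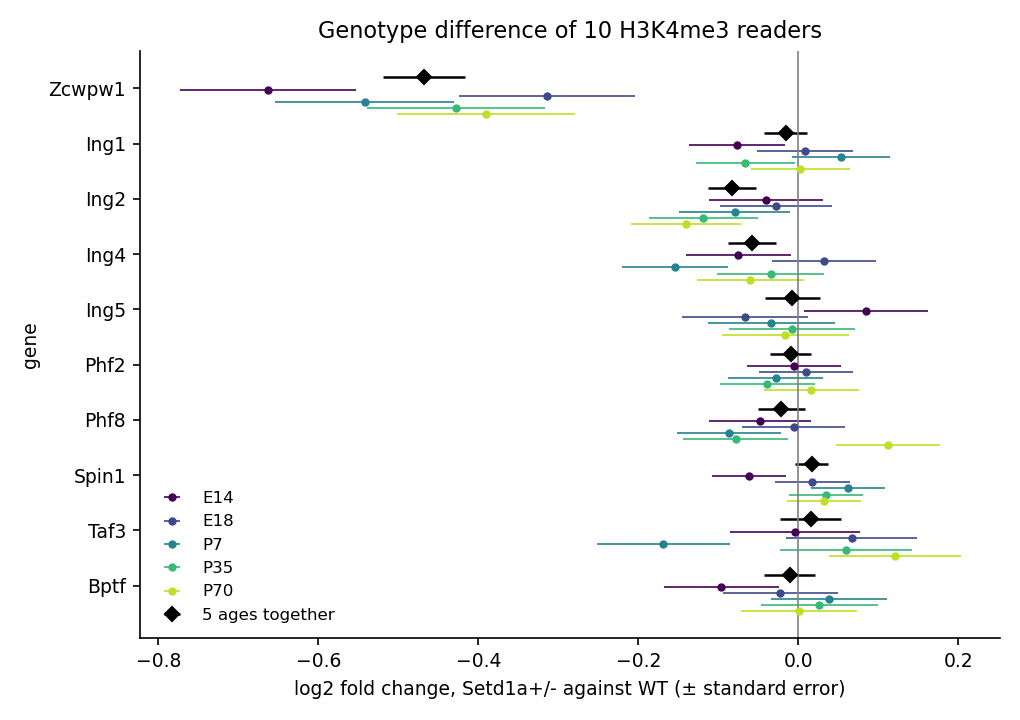
Log2 fold change of *Setd1a*+/- against WT (horizontal axis, bars show the standard error) for the 10 readers, over 5 ages together (diamonds) and at each age (circles). *Zcwpw1*, which was picked on this difference, lies between −0.66 and −0.31 at single ages, and the other 9 lie between −0.17 and 0.12.

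Genes that work with these readers were taken from lists chosen with earlier results of these data known, so they are no independent check. They were read beside the 4.43% of all tested genes called by genotype. Of 23 other H3K4me3 readers, 21 were tested and 0 called, with 0 under an unadjusted p of 0.05 in edgeR, DESeq2 and limma. *Rag2* and *Zcwpw2* were not tested. The median log2 fold change of the 21 was 0.008, and the smallest p was that of *Morc4*, a reader of the MORC family, with 0.086 ± 0.048 (SE, edgeR adjusted p 0.435). At single ages *Morc4* ran from −0.19 at P35 to 0.37 at E14 (edgeR adjusted p 0.0875 at E14), and its age by genotype interaction was not called (edgeR adjusted p 0.444). *Cxxc1*, which is on this list, had 0.028 ± 0.020 (SE, edgeR adjusted p 0.603). In WT, 16 of the 21 fell and 2 rose from E14 to E18, where 34.1% of all tested genes fell and 31.8% rose. From E18 to P7, 20 fell and 0 rose, beside 33.4% and 33.9% of all tested genes. From P7 to P35, 12 fell and 3 rose, beside 34.4% and 32.6%. The median log2 differences of the list at these steps were −0.301, −0.495 and −0.35, beside −0.011, 0.001 and −0.015 over all tested genes.

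Of the 14 genes of the Sin3 deacetylase complex around Ing1 and Ing2, 1 was called, *Suds3*, higher in Het at a log2 fold change of 0.071 ± 0.020 (SE, edgeR adjusted p 0.0284). At E18 its groups did not overlap, at 82.89 to 99.62 CPM in WT and 102.1 to 110.8 CPM in Het, and at the other 4 ages they did. The difference at E18 alone was not called (edgeR adjusted p 0.0985). The median of the 14 was −0.003. Without the 2 *Xist* libraries *Suds3* had 0.069 and missed the threshold (edgeR adjusted p 0.0558, range 0.00538 to 0.0558 over the alternatives). Of the 14 genes of TFIID, 1 was called, *Taf13*, lower in Het at a log2 fold change of −0.12 ± 0.033 (SE, edgeR adjusted p 0.0274), with overlap at each age and a median of the list of −0.030. It missed the threshold without Het library 1 or WT library 4 at P35 (edgeR adjusted p 0.053 and 0.0516), Het library 4 at P7 (0.0501), Het library 2 or WT library 3 at P70 (0.052 and 0.0512), or the *Xist* libraries (0.0585), within a range of 0.0101 to 0.0646 over all alternatives.

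Of 10 genes of the acetyltransferase complexes around Ing4 and Ing5, edgeR called 0, with 1 under an unadjusted p of 0.05, as did DESeq2 and limma. That gene was *Jade1*, a scaffold of these complexes, with −0.082 ± 0.034 (SE, edgeR adjusted p 0.206), which passed only without Het library 4 at E18, with −0.099 (edgeR adjusted p 0.0445, range 0.0445 to 0.329 over the alternatives). Of the 6 listed genes of NURF, 5 were tested and edgeR called 0, again with 1 under 0.05 unadjusted, as did DESeq2 and limma. That gene was *Smarca1*, an ATPase of the complex, with 0.093 ± 0.035 (SE, edgeR adjusted p 0.146), and *Bap18* was not matched to the files. The medians of these lists were −0.014 and −0.003.

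Since Zcwpw1 is known from meiosis, genes of meiotic recombination were listed too, again with earlier results of these data known. Of 22, 16 were tested and 2 called by edgeR, 3 by DESeq2 and 2 by limma, with a median log2 fold change of −0.053 and 10 of the 16 below 0. The largest difference of the list was that of *Spo11*, higher in Het at 0.69 ± 0.23 (SE, edgeR adjusted p 0.0743). EdgeR did not call it, and it had 0 to 99 counts per library. *Prdm9*, which writes the marks that Zcwpw1 binds in germ cells, was lower in Het at a log2 fold change of −0.31 ± 0.075 (SE, edgeR adjusted p 0.00543), with overlap at each age. It had few counts, 41 to 230 per library, and fell in WT from 5.35 CPM at E14 to 2.81 CPM at E18, with single values of 4.699, 5.503, 5.792, 5.358 and 5.413 CPM and of 3.162, 2.614, 2.481, 2.431 and 3.346 CPM. *Rec8*, a cohesin subunit of meiosis, was higher in Het by 0.44 ± 0.11 (SE, edgeR adjusted p 0.00742). At E18 it was at 11.1, 10.3, 9.02, 5.37 and 9.34 CPM in WT and at 13.3, 16.5, 20.5, 15.3 and 15.0 CPM in Het, without overlap. The difference at E18 alone was not called (edgeR adjusted p 0.0985), and at the other 4 ages the groups overlapped. At P7 the difference of *Rec8* was −0.16, with WT library 2 the highest at 13.78 CPM and the other 4 WT libraries at 4.007 to 9.137 CPM, and without this library the difference over the ages was 0.51. Both calls held with each single library left out, with edgeR adjusted p of 0.00227 to 0.0105 for *Prdm9* and 0.000251 to 0.0149 for *Rec8*.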

How the data were processed

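The data were RNA sequencing of 50 libraries of frontal cortex from mice of 2 genotypes at 5 ages. The deposited values are raw counts of fragments per gene, which the authors made by trimming with Trimmomatic, checking with FastQC, aligning with STAR to GRCm38 and counting with featureCounts. Per the file headers, exons of Ensembl genes were counted without strand, and a fragment over several genes was counted for each. Totals per library had a median of 38626998, and at 120 to 398 counts of *Zcwpw1* chance in counting alone adds several percent to each value.

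Genes were named from GENCODE vM21, which held 55141 of the 55487 and called 21897 protein-coding. Of these, 16330 passed edgeR's filterByExpr (minimum count 10, over the 10 groups). edgeR 4.0.16 (robust quasi-likelihood, TMM, R 4.3.3) tested genotype with age as a covariate, genotype at each age, the age by genotype interaction and the WT steps between ages, with Benjamini-Hochberg adjustment over all tested genes and calls at an adjusted p under 0.05. CPM used TMM sizes, RPKM the exonic length, and log2 CPM a prior count of 2. The code was tested on simulated data. Promoter windows came from RefSeq. pandas 2.3.3 and matplotlib 3.10.9 under Python 3.11.15 made tables and figures.

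Alternatives were DESeq2 1.42.0, limma 3.58.1, other scalings and filters, every annotated gene, a covariate for RNA integrity, libraries left out and an adjusted p under 0.01. The genes named were the 10 readers, *Setd1a*, the genes within 20 kb of *Zcwpw1* and genes sharing exonic bases, the called genes or else the gene with the smallest p of each list, the most abundant gene of each marker list and the 5 genes most like *Zcwpw1*. *Cxxc1* was named because it is a subunit of the Setd1a complex, and *Spo11* because its genotype difference was the largest of the meiotic list. Members and lists were chosen with earlier results of these data known.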

Additional observations from a re-analysis of the deposited data

Results flagged for a closer look

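Among 120 groups of 5 libraries, over 12 genes, 5 groups held a library far from the other 4 of its group, where chance alone would give about 1 in 20 groups. For *Zcwpw1* these were WT library 2 at P7, at 7.50 CPM, and Het library 1 at P35, at 3.91 CPM. The others were *Spin1* in WT library 2 at P7 (214 CPM), *Taf3* in Het library 1 at E14 (29.2 CPM) and *Bptf* in Het library 3 at E18 (150 CPM). In 2 libraries of mice described as male, *Xist* was counted, 60159 times in WT library 5 at E14 and 55644 times in WT library 2 at E18. None of the 12 genes had genotypes apart without overlap in opposite directions at 2 ages (0 genes). The age by genotype interaction was called for none of those tested, which leaves out *Zcwpw1*. Signs differed between ages for some, as for *Taf3* at −0.17 ± 0.083 (SE) at P7 and 0.12 ± 0.082 (SE) at P70.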

How the results depend on the processing

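The genotype difference of *Zcwpw1* stayed between −0.48 and −0.43 over all alternatives. With at least 10 CPM in at least 5 libraries as the filter, 12082 genes and 9 of the 10 readers remained, without *Zcwpw1*. Other readers called by genotype went from 0 to 1 (*Ing2*) with library size only, without WT library 2 at P7 and without the 3 named WT libraries, and lay between 0 and 1 over single libraries left out. With library size only, readers called higher went from 1 to 2 from E14 to E18 and from 3 to 1 from P7 to P35.

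Signs turned for small differences only. With library size only, *Phf8* and *Bptf* from P7 to P35 were at −0.058 and −0.022 and *Ing4* from P35 to P70 at −0.0076, and with RNA integrity as a covariate the latter was at −0.0014. *Spin1* from E14 to E18 was at −0.0194 without the *Xist* libraries and −0.0195 without all 3. By genotype, *Phf2* was at 0.0004 without WT library 2 at P7 and 0.0014 without all 3, and *Ing5* at 0.0052 without all 3. *Ing2* at E18 was at 0.0046 without the *Xist* libraries and without all 3, and ran from −0.0605 to 0.0047 over single libraries left out. Over single libraries left out, genotype differences ran from −0.0189 to 0.0062 for *Ing5*, −0.0168 to 0.0004 for *Phf2* and −0.0198 to 0.0026 for *Bptf*. The WT steps from P35 to P70 ran from −0.0083 to 0.0305 for *Ing4*, −0.0182 to 0.0795 for *Ing5* and −0.0892 to 0.0237 for *Phf8*, also over single libraries left out.

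Counts over all genes depended on the settings. By genotype with age as a covariate, 723 became 407 at an adjusted p under 0.01. At E14, 21 became 114 (DESeq2), 3 (library size only), 9 (10 CPM filter), 10 (all annotated genes), 799 (without the *Xist* libraries), 1137 (without all 3) and 2 (under 0.01), and at E18, 18 became 111 (DESeq2), 10 (limma), 7 (10 CPM filter), 1 (RNA integrity), 76, 51 and 188 (without *Xist* libraries, P7 library or all 3) and 3 (under 0.01). At P7, 118 became 16 (limma), 62 (10 CPM filter), 7 and 9 (without the P7 library or all 3) and 22 (under 0.01). At P35, 0 became 11 (DESeq2), 2 (DESeq2 size factors), 1 (10 CPM filter), 2 (all annotated genes), 3, 5 and 5 (without *Xist* libraries, P7 library or all 3). At P70, 38 became 78 (DESeq2), 60 (without all 3) and 6 (under 0.01), and the interaction went from 0 to 21 (DESeq2), 13, 1 and 45 (without *Xist* libraries, P7 library or all 3). From P35 to P70 in WT, 85 lower became 138 (DESeq2), 129 (library size only), 54 (RNA integrity), 135 (without the P7 library), 155 (without all 3), 24 (WT libraries alone) and 22 (under 0.01). The 86 higher became 139 (DESeq2), 44 (RNA integrity), 139 (without all 3), 19 (WT libraries alone) and 19 (under 0.01). Over single libraries left out, the counts ran from 1 to 744 at E14, 7 to 149 at E18, 7 to 212 at P7, 0 to 5 at P35, 7 to 94 at P70 and 0 to 5 for the interaction, and from 26 to 135 lower and 19 to 147 higher from P35 to P70. The cause of these moves was not tested.

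Library numbers are shared between genotypes. Over 25 pairs with the same age and number the correlation of residuals was −0.204 to 0.46 with a median of 0.064, and only 9 exceeded 0.1, so the numbers were taken as names. With the number within age as a replicate block, calls over all genes moved from 18 to 35 at E18, from 118 to 21 at P7 and from 0 to 2 for the interaction. In this paired fit the other readers called stayed at 0, *Zcwpw1* was at −0.47 and *Ing2* at −0.082 (edgeR adjusted p 0.109), and it changed no other call named here. No WT step can be fitted with it.

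Whole tissue was measured, and the part of the mix of cells in the results for the readers was not tested. The 5 mice per group limit what can be seen at single ages, and mRNA levels do not give levels of protein or binding. The genotype difference of *Zcwpw1* comes from the data on which it was picked.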

Other observations

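Within Het, *Zcwpw1* differed by −0.011 on the log2 scale from E14 to E18, −0.54 from E18 to P7, 0.32 from P7 to P35 and 0.076 from P35 to P70, given with no test. *Gm49388*, which shares exonic bases with *Setd1a*, was higher in Het by 0.12 ± 0.023 (SE, edgeR adjusted p 0.000497). *Smarca1* at P35 was at 33.3 to 39.7 CPM in WT and 39.9 to 44.5 CPM in Het, without overlap. Its log2 difference there, 0.17 ± 0.079 (SE, edgeR unadjusted p 0.0356), was not called. At the other ages the groups overlapped, and at E14 the difference was −0.044.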
